A study of Mus musculus with 9 samples.

Results

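The 8 genes described here encode transcription factors of the primitive streak and early mesoderm, and were followed through a study of Yap1 in mouse embryonic stem (ES) cells. They are T (Brachyury), Mixl1, Evx1, Gsc, Lhx1, Mesp1, Tbx6 and Cdx1. They were taken by symbol from the table of gene values, which holds all 8 of them among 18504 genes. Each was read in 9 libraries of polyadenylated RNA in 8 groups.

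The cells were J1, an ES line of the strain 129S4/SvJae, at passages 5 to 7. The groups were cells overexpressing Yap1 (Yap1_OE) and BirA cells, named for a bacterial biotin ligase, as their control, the libraries labelled Yap1_KO1 and Yap1_KO2 with their control ESC, a differentiated knockdown (dESC_Yap1_KD1) with its control (dESC_control), and an undifferentiated knockdown (Yap1_KD1) with its control (Control). Every group has 1 library except the knockout-labelled pair, so most comparisons rest on 1 library a side and lack a replicate check. For the way and time of differentiation, the knockdown reagent, the edit in the knockout-labelled cells and their clones, details were not given in the sources used here.

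In the embryo the primitive streak is the region of the epiblast where cells leave the epithelium and become mesoderm and definitive endoderm. Wnt3, Nodal and bone morphogenetic protein signals induce it, and T is a direct target of the Wnt effectors TCF and LEF. ES cells that exit pluripotency can pass through a like state in culture. Yap1 is a coactivator of the Hippo pathway that binds DNA through TEAD factors.

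Promoter windows were searched for the letters that TCF and LEF, T-box and TEAD factors bind. Whether the members are targets of these factors was not tested. Windows of 6 members were searched (T, Gsc, Mesp1, Evx1, Tbx6 and Lhx1), from 250 bases before to 50 bases after the RefSeq start, build GRCm38.p6. No window was at hand for Mixl1, and Cdx1 was left out of the search, so the counts cover these 6 members alone. The motifs were CTTTGAA or CTTTGAT for TCF and LEF, AGGTGT for a T-box half-site and GGAATG for TEAD, each on both strands. A TCF/LEF match was present in 2 of the 6 windows (T and Mesp1), against 8.65% of 32851 windows of the same length. A T-box half-site was present in 3 (T, Mesp1 and Evx1), against 13.7%, and a TEAD match in 1 (Tbx6), against 14.7%. The 3 windows that hold a T-box half-site are shown with every match in capitals. They lie at chr17:8434173-8434472 on the plus strand for T, chr7:79793541-79793840 on the minus strand for Mesp1 and chr6:52313248-52313547 on the plus strand for Evx1.
T: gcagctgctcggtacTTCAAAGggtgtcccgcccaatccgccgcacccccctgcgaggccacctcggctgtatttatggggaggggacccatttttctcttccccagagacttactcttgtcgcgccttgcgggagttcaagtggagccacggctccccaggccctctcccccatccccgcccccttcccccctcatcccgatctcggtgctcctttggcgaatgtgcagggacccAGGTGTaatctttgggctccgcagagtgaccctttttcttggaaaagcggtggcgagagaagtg
Mesp1: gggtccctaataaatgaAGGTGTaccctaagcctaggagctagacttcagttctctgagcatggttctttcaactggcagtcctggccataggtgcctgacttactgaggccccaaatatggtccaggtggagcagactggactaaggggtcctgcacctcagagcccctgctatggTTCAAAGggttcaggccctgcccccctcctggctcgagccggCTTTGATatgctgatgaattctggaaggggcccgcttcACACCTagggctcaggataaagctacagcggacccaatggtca
Evx1: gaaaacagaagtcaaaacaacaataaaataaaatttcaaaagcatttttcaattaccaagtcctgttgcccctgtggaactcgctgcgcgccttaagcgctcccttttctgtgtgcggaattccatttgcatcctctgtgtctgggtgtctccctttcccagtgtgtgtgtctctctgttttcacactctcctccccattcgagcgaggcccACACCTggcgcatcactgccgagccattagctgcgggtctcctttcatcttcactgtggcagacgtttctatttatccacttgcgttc
Counted from the gene's start, the TCF/LEF match of T begins at -235 and those of Mesp1 begin at -73 and -31, while the T-box half-sites begin at -14 in T, at -233 and 7 in Mesp1 and at -38 in Evx1. A match is a run of letters, and binding was not measured.

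Values are FPKM, fragments per kilobase of transcript, scaled to library depth. The low values of each member were whole multiples of 1 step once relative depth was taken into account, so the number of fragments behind each value could be read off. Of the 66 values above 0, 65 came out within 0.02 of a whole number, and the exception was the Evx1 value of the differentiated control, rounded to 649. Depth, as estimated from these steps, was lowest in the library labelled Yap1_KO1 (9.23 M fragments, M for mega) and highest in Control (22.4 M). Yap1 RNA stood at 12.5 FPKM in the differentiated knockdown against 78.0 in its control, and at 4.55 in the undifferentiated knockdown against 37.4. In the library labelled Yap1_KO1 it was 57.3 and in that labelled Yap1_KO2 27.6, against 65.4 in ESC, with a limma log2 change of -0.70 (SE 0.45, Benjamini-Hochberg adjusted p = 0.402). The overexpression library had 139 FPKM against 46.7 in BirA.

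Across the 7 undifferentiated libraries 7 of the 8 genes stayed below 1 FPKM in every library, as did 33.2% of the 18435 genes above 0 in any library, and Cdx1 was the exception. In the differentiated control 6 of the 8 genes stood above all 7 undifferentiated libraries, against 28.6% of those 18435 genes. In the differentiated knockdown 3 did (T, Mixl1 and Evx1), against 24.6%. All 8 genes were lower in the differentiated knockdown than in its control, by any amount, against 48.5% of genes. In a bulk sample, fewer cells of a type and less RNA per cell cannot be told apart.

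**Figure D1:**
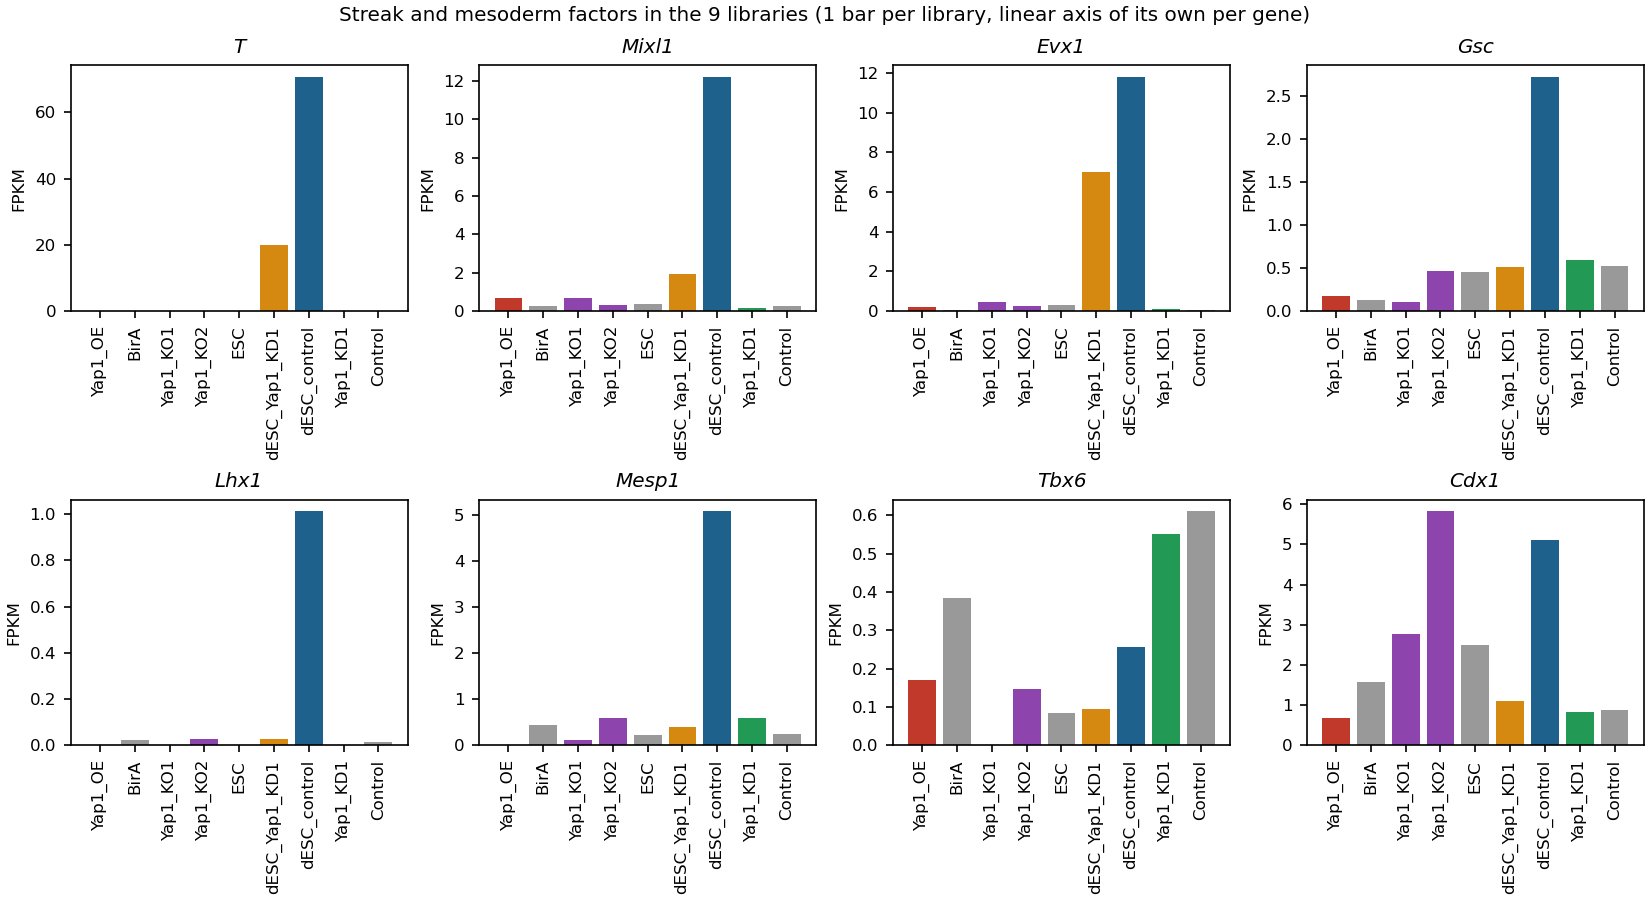
FPKM (vertical axis, linear, from 0, scaled per gene) of the 8 factors in the 9 libraries, 1 bar per library. T, Mixl1, Gsc, Mesp1, Evx1 and Lhx1 are highest in dESC_control, Cdx1 is highest in Yap1_KO2 (5.83 FPKM), and Tbx6 is highest in Control (0.611 FPKM).

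T and Mixl1 mark the whole streak. T, the founding T-box factor, needed for posterior mesoderm and notochord, stood at 20.0 FPKM (515 fragments) in the differentiated knockdown and 70.7 FPKM (2674 fragments) in the differentiated control. The level of T was 0.141 FPKM in Yap1_KD1 and 0.0911 in Control, 0.0465 in Yap1_OE and 0.105 in BirA, and 0.111 and 0.0404 in the libraries labelled Yap1_KO1 and Yap1_KO2 against 0.0689 in ESC. These 7 undifferentiated values rest on 1 to 5 fragments each, while both differentiated libraries lie far above them. The knockdown level of T was 28.2% of the differentiated control (95% interval 25.6 to 31.0%).

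Mixl1, a paired-type homeobox factor that shapes the split of mesoderm and endoderm, had 1.95 FPKM (57 fragments) in the differentiated knockdown and 12.2 FPKM (523 fragments) in its control. In the undifferentiated libraries it stood at 0.175 FPKM in Yap1_KD1 and 0.282 in Control, 0.698 in Yap1_OE and 0.247 in BirA, and 0.684 and 0.321 in the libraries labelled Yap1_KO1 and Yap1_KO2 against 0.396 in ESC. Both differentiated values exceed all 7 of these, and the knockdown held 16.0% of the differentiated control (interval 11.9 to 21.0%). These intervals are exact binomial (Clopper-Pearson) ones on the split of fragments between the libraries. They cover counting error only, and compare 2 libraries, not 2 conditions.

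Evx1, the even-skipped homologue of the posterior streak, stood at 6.99 FPKM (262 fragments) in the differentiated knockdown and 11.8 FPKM in its control, so the knockdown kept 59.2% (interval 51.1 to 68.4%). The level of Evx1 was 0.117 FPKM in Yap1_KD1 and 0.0471 in Control, 0.192 in Yap1_OE and 0.0722 in BirA, and 0.457 and 0.250 in the libraries labelled Yap1_KO1 and Yap1_KO2 against 0.332 in ESC. The percentage retained by Evx1 lies above the upper bound of the intervals of T, Mixl1, Gsc, Lhx1, Mesp1 and Cdx1. The interval of Tbx6, on 2 fragments against 8, spans the Evx1 value, so these 2 members cannot be ordered.

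Gsc and Lhx1 belong to the anterior streak and the organizer. Gsc, the homeobox repressor goosecoid, had 0.516 FPKM (7 fragments) in the differentiated knockdown and 2.72 FPKM (54 fragments) in its control, or 19.0% (interval 7.30 to 41.9%). In undifferentiated libraries the level of Gsc was 0.592 FPKM in Yap1_KD1 and 0.520 in Control, 0.177 in Yap1_OE and 0.133 in BirA, and 0.105 and 0.461 in the libraries labelled Yap1_KO1 and Yap1_KO2 against 0.459 in ESC. The differentiated knockdown is inside this undifferentiated range, and the differentiated control is above it.

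Lhx1, a LIM homeobox factor needed for head organizer activity, had 1 fragment (0.0280 FPKM) in the differentiated knockdown and 53 fragments (1.01 FPKM) in its control. In the undifferentiated libraries it had 1 fragment each in the library labelled Yap1_KO2, in BirA and in Control and 0 in the other 4, where it is listed at 0. The ratio of the differentiated knockdown to its control was 2.77% with an interval of 0.0688 to 16.1%, wide because the knockdown library holds a lone fragment.

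Mesp1, the basic helix-loop-helix factor of nascent mesoderm and the earliest cardiac precursors, had 0.410 FPKM (5 fragments) in the differentiated knockdown and 5.09 FPKM (91 fragments) in its control. The knockdown level was 8.06% of the control (interval 2.55 to 19.5%). In undifferentiated cells Mesp1 stood at 0.598 FPKM in Yap1_KD1 and 0.241 in Control, 0.117 and 0.598 in the libraries labelled Yap1_KO1 and Yap1_KO2 against 0.219 in ESC, and was listed at 0 in Yap1_OE against 0.443 in BirA. As with Gsc, the differentiated knockdown lies within the undifferentiated range.

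Tbx6, the T-box factor of presomitic mesoderm that restrains neural fate, was the member with a lower level in the differentiated control than in the undifferentiated Control. It had 0.0945 FPKM (2 fragments) in the differentiated knockdown, 0.258 FPKM (8 fragments) in the differentiated control, 0.551 FPKM (16 fragments) in Yap1_KD1 and 0.611 FPKM (22 fragments) in Control. The other undifferentiated libraries ran from 0, in the library labelled Yap1_KO1, to 0.383 in BirA, so both differentiated values lay within the undifferentiated range. The 36.7% of the differentiated control found under knockdown has an interval of 3.79 to 184% so a difference was not detectable at this depth. Against Control the differentiated control held 0.422 of the Tbx6 level (interval 0.162 to 0.984).

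Cdx1, a caudal-type homeobox factor of posterior identity and a target of Wnt and retinoic acid, was the member that reached 1 FPKM in undifferentiated libraries. It had 1.11 FPKM (24 fragments) in the differentiated knockdown and 5.10 FPKM (162 fragments) in its control, or 21.7% (interval 13.5 to 33.5%). Yap1_KD1 had 0.842 FPKM and Control 0.869. Yap1_OE had 0.693 FPKM and BirA 1.58. The libraries labelled Yap1_KO1 and Yap1_KO2 had 2.77 FPKM (42 fragments) and 5.83 FPKM (121 fragments), and ESC 2.51 FPKM (61 fragments). The knockout-labelled libraries thus differ from each other more than the first differs from ESC, and the highest undifferentiated value is above the differentiated control.

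**Figure D2:**
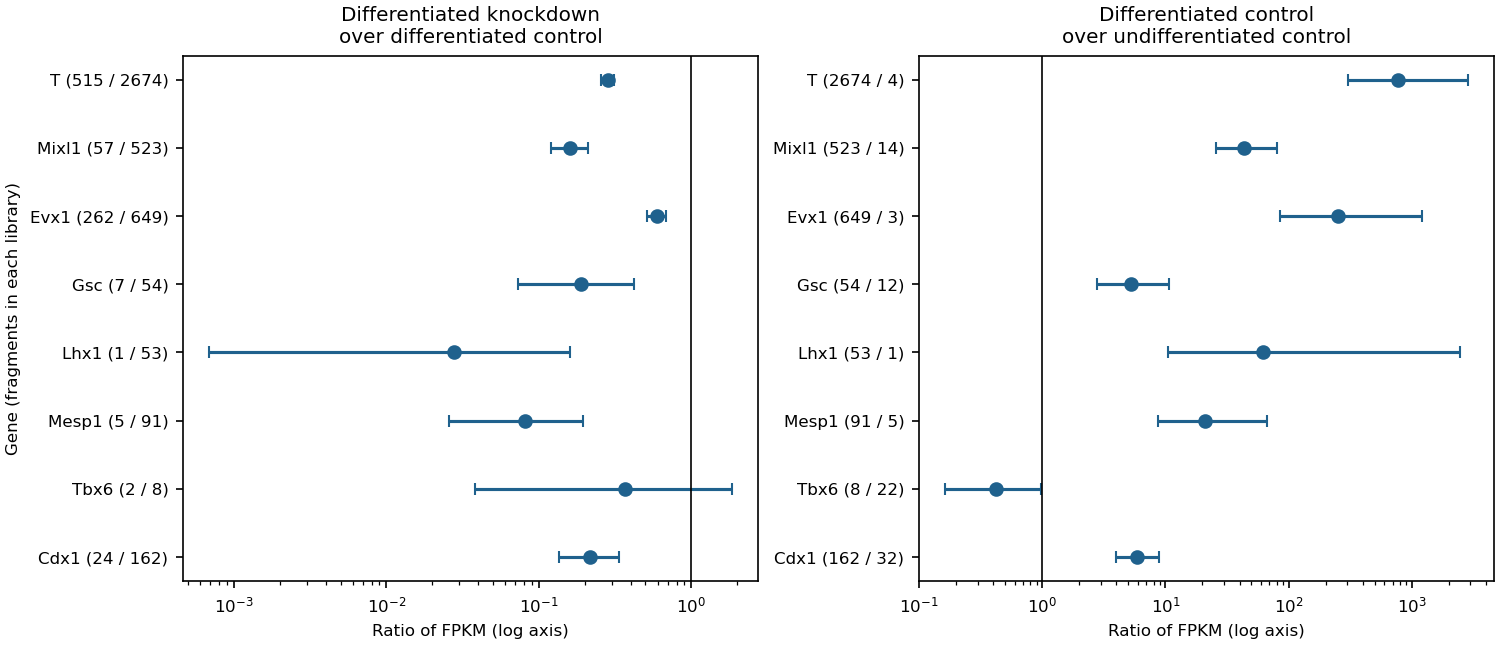
Ratios of FPKM (horizontal log axis) of the 8 factors for dESC_Yap1_KD1 over dESC_control (left) and dESC_control over Control (right), with 95% exact binomial intervals for counting error, and the fragments in each library beside the gene name. In the left panel the intervals of all genes but Tbx6 lie below 1. In the right panel the intervals of all genes but Tbx6 lie above 1, and that of Tbx6 lies below it.

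Differentiation of control cells was set against the undifferentiated Control. T was at 776-fold its level there (counting interval 303 to 2850, on 4 fragments in Control), Evx1 at 251-fold (85.5 to 1221, on 3 fragments) and Mixl1 at 43.4-fold (25.6 to 79.9). Lhx1 was at 61.5-fold (10.6 to 2475, on 1 fragment in Control), Mesp1 at 21.1-fold, Cdx1 at 5.88-fold and Gsc at 5.22-fold. On the log2(FPKM + 1) scale, which understates changes of low genes, 6 of the 8 were at least 2-fold higher, against 13.1% of 12436 genes that reached 1 FPKM on either side, and 0 were at least 2-fold lower, against 10.1%. Members passed that minimum through the differentiated library, where they are high. Lhx1 had a log2 ratio of 0.99 on this scale, just under the limit, and 7 members passed it with a pseudocount of 0.1, and Tbx6 did not reach 1 FPKM in either library.

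The same step under knockdown gave a shorter list. In the differentiated knockdown over Yap1_KD1, T (log2 ratio of FPKM + 1 of 4.20), Evx1 (2.84) and Mixl1 (1.33) were at least 2-fold higher, against 10.3% of 12281 genes, and 0 were at least 2-fold lower, against 10.4%. T, Evx1, Mixl1 and Cdx1 passed the 1 FPKM minimum through the differentiated knockdown alone. None of them could therefore come out lower, and the counts are a description. Cdx1 had a log2 ratio of 0.19, and Mesp1 (-0.18), Gsc (-0.07), Lhx1 (0.04) and Tbx6 (-0.50) did not reach 1 FPKM in either library. Their fragments were 5 in the differentiated knockdown against 10 in Yap1_KD1 for Mesp1, 7 against 11 for Gsc, 1 against 0 for Lhx1 and 2 against 16 for Tbx6.

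The 4 libraries of the knockdown arm form a square of state and knockdown, and an additive limma model with Benjamini-Hochberg adjustment over 12719 genes tested each factor. Without replicates in the square, the error of this fit comes from the departure from additivity. For differentiation 3 members rose: T by a log2 change of 5.12 (SE 0.50, adjusted p = 0.0146), Evx1 by 3.23 (SE 0.26, adjusted p = 0.0135) and Mixl1 by 2.35 (SE 0.55, adjusted p = 0.0431). Limma called 20.3% of all tested genes higher and 18.6% lower, so a rise was common. The same 4 libraries were also fitted with other pseudocounts, other minimum levels, rescaling to a common median and without small RNA rows. There the adjusted p of limma ran from 0.00583 to 0.0208 for T and from 0.00534 to 0.0202 for Evx1. For Mixl1 it ran from 0.0192 to 0.0802. Mixl1 lost its call with a pseudocount of 5 (0.0802), without a minimum level (0.0526) and with a minimum of 5 FPKM (0.0628). A limma fit of state alone on all 9 libraries, chosen after seeing the data, gave adjusted p of 3.45e-05 for T and Evx1 and 0.00537 for Mixl1. That fit treats all undifferentiated libraries as replicates, whatever their Yap1 treatment. Cdx1 (0.95, SE 0.43, adjusted p = 0.152), Mesp1 (1.06, SE 0.67, 0.262), Lhx1 (0.51, SE 0.33, 0.266) and Gsc (0.61, SE 0.40, 0.278) did not pass in the additive limma model of the square.

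For knockdown 0 members passed in the same limma fit, with adjusted p from 0.695 to 0.762. It called 3 genes higher and 1 lower (0.0236% and 0.00786%), while 807 genes had an unadjusted p under 0.05. Log2 changes of the 7 tested members ran from -0.29 (Evx1) to -1.14 (Mixl1), all below 0. The model takes 1 knockdown effect for both states, and a difference between the states enters its error. No test of that difference was run, since each cell of the square holds 1 library.

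The knockdown in differentiated cells was therefore described by size. Of the 8 members, 5 were at least 2-fold lower than in the differentiated control on the log2(FPKM + 1) scale, against 4.77% of 11845 genes, and 0 were at least 2-fold higher, against 1.71%. They were Mixl1 (-2.16), Mesp1 (-2.11), T (-1.77), Cdx1 (-1.53) and Gsc (-1.29). Lhx1 (-0.97) and Evx1 (-0.68) did not reach 2-fold on this scale, and Tbx6 was under 1 FPKM in both libraries. For Lhx1 this rests on the pseudocount: its 2.77% of the differentiated control is the lowest percentage of the 8, and with a pseudocount of 0.1 its log2 ratio was -3.12 and 6 members were at least 2-fold lower. Mesp1, Gsc and Lhx1 reached the 1 FPKM minimum through the differentiated control alone, so their passing it favoured a lower value under knockdown and the count is a description. This comparison and the differentiation of control cells share the differentiated control library, so the values of the 2 are given side by side and not set against each other.

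The genes around these factors were read from 5 further lists. Among 14 other streak and mesendoderm factors, limma with Benjamini-Hochberg adjustment tested 13 and found 11 that rose with differentiation and 0 that fell, beside 20.3% and 18.6% of all tested genes. Sp5, a Wnt-induced zinc finger factor, rose by 4.76 (SE 0.57, adjusted p = 0.0164), Hand1, of extraembryonic and lateral mesoderm, by 3.87 (SE 0.46, adjusted p = 0.0164), Foxh1, the DNA-binding partner of Nodal-activated Smads, by 2.58 (SE 0.16, adjusted p = 0.0125), and Msx2, a homeobox target of bone morphogenetic proteins, by 2.44 (SE 0.25, adjusted p = 0.0151).

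In the differentiated knockdown against its control the same list split. Sp5 was at 17.7 FPKM against 71.0, Hand1 at 7.97 against 27.1 and Msx2 at 6.05 against 13.9, and these 3 of 13 genes at 1 FPKM or more were at least 2-fold lower, beside 4.77% of all genes. Otx2, a head and epiblast homeobox factor, was at 81.0 FPKM against 24.0, and Zic2, a zinc finger factor of epiblast and neural tissue, at 78.8 against 26.1, and these 2 were at least 2-fold higher, beside 1.71%. Eomes, the T-box factor of early mesendoderm, was at 12.7 against 22.0, or 58.0%. The median log2 ratio of the list was -0.13, beside -0.01 over all genes.

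Among 15 streak-inducing signals and their feedback genes 13 were tested by limma, of which 6 rose and 3 fell with differentiation, beside the same 20.3% and 18.6%. Wnt3, the ligand that induces the streak, rose by 4.13 (SE 0.38, adjusted p = 0.0141), Fgf5, of primed epiblast, by 4.32 (SE 0.19, adjusted p = 0.0119) and Axin2, a Wnt feedback gene, by 2.67 (SE 0.16, adjusted p = 0.0125). The 3 that fell were Tdgf1, the Nodal coreceptor, Bmp4 and Fgf4. Under knockdown in differentiated cells Wnt3 stood at 10.7 FPKM against 28.7, Fgf8, which drives cells out of the streak, at 12.0 against 34.5 and the Wnt antagonist Dkk1 at 0.281 against 3.23. Nodal was at 40.9 FPKM against 40.7, Tdgf1 at 85.0 against 84.3 and Wnt8a at 6.25 against 6.97. Fgf4 was at 46.2 against 13.4. In all, 3 of 13 were at least 2-fold lower and 2 at least 2-fold higher, beside 4.77% and 1.71% of all genes, with a median log2 ratio of 0.01.

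Later mesoderm genes were mostly near zero. Of 12 paraxial genes 5 reached 1 FPKM in the limma fit and 0 passed for differentiation, in a fit that gave 6790 genes an unadjusted p below 0.05. That fit called 20.3% of all tested genes higher and 18.6% lower. Whether the short lists in this paragraph differ from these shares was not tested. Msgn1, a presomitic factor downstream of Wnt and Tbx6, was listed at 0 in both differentiated libraries. Lfng, the Notch glycosyltransferase, was at 1.65 FPKM in the differentiated knockdown against 8.54, and Tcf15, a factor that ES cells also express, at 83.8 against 32.7. Of 14 lateral, cardiac and blood genes 5 were tested by limma and 1 rose, Tbx20. Nkx2-5, the cardiac homeobox factor, was at 0.758 FPKM under knockdown against 2.55. Of 10 measured posterior homeobox and related genes 3 were tested and 2 rose by limma, Cdx2 and Cyp26a1. Cdx2, the trophectoderm and posterior caudal factor, was at 3.97 FPKM in the differentiated knockdown against 6.87. Median log2 ratios under knockdown in differentiated cells were -0.51, -0.0015 and -0.85 for the 3 lists, over 5, 5 and 3 genes.

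**Figure D3:**
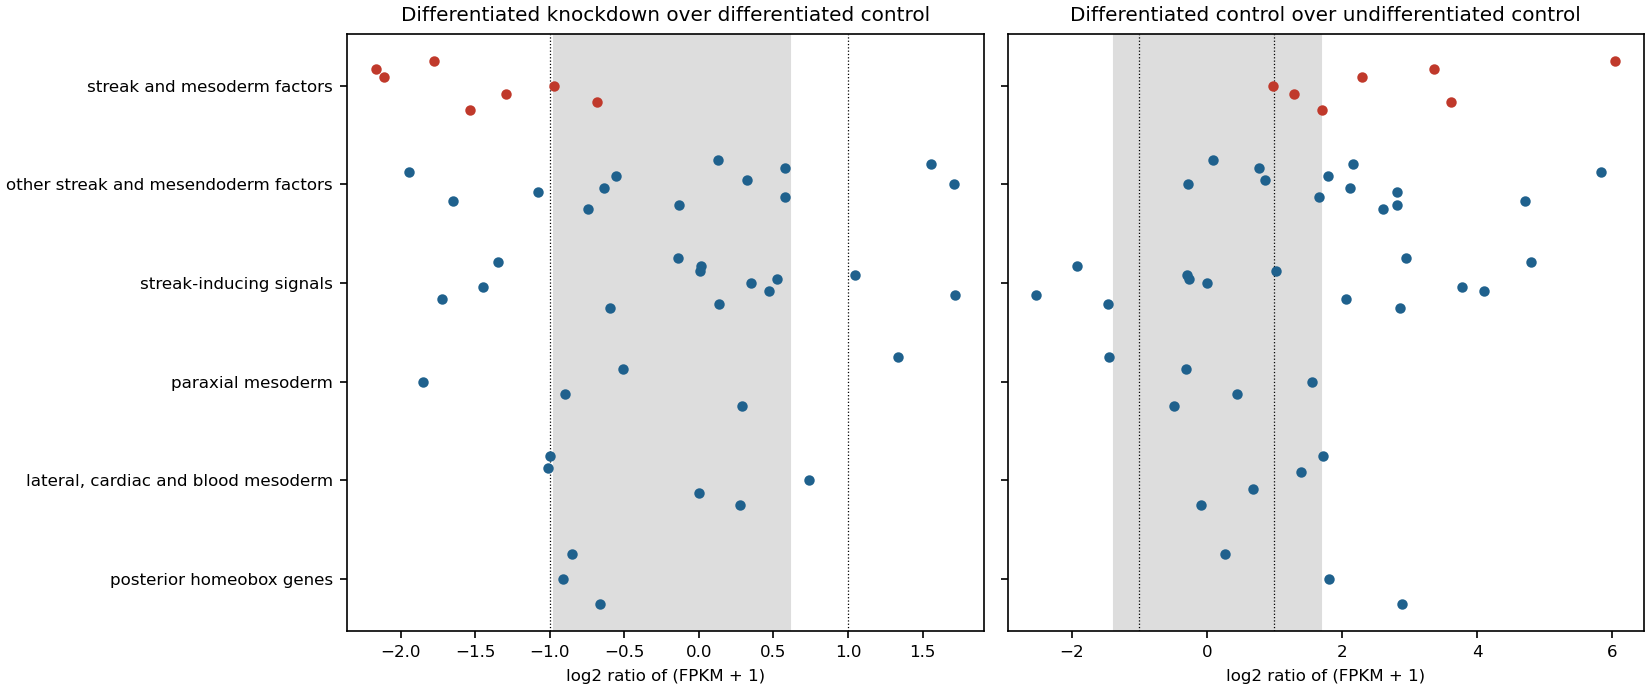
Log2 ratio of (FPKM + 1) of each gene that reached 1 FPKM, by list, for dESC_Yap1_KD1 over dESC_control (left) and dESC_control over Control (right). The grey band spans the 5th to 95th percentile of all genes (-0.97 to 0.61 left, -1.37 to 1.69 right), and dotted lines mark 2-fold. The streak and mesoderm factors (red, 7 of 8) lie below 0 on the left and above 0 on the right.

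Markers of other cells moved as well. The summed FPKM of 10 trophoblast markers was 116 in the differentiated knockdown and 599.8 in its control, against 24.2 to 118 in undifferentiated libraries. Krt8 made up 65.3 and 486 of these sums, 3 of the 10 genes (Cdx2, Eomes and Hand1) stand on the lists above, and 0 were listed at 0 in either library. Of the 8 trophoblast markers at 1 FPKM or more, 4 were at least 2-fold lower in the differentiated knockdown. Only 1 of the 8 was higher there, Tfap2c, at 18.4 FPKM against 8.87. The sum of 8 pluripotency markers was 2342 in the differentiated knockdown and 1547 in its control, with all 8 at 1 FPKM or more in both, against 2522 to 3320 in undifferentiated cells. Of these 8 markers 7 were higher in the differentiated knockdown, 3 of them at least 2-fold, and Klf4 was lower, at 5.83 FPKM against 9.10. Neuroectoderm markers (8) summed to 58.2 and 66.9, and Neurog2 was listed at 0 in both. Nes was at 28.6 FPKM in the differentiated knockdown and 50.1 in its control, and Tubb3 at 28.5 and 16.1, in the opposite direction. Endoderm markers (9 measured) summed to 3.79 and 8.34, with Afp listed at 0 in both, Sox17 at 0.231 and 0.162 FPKM and Dab2, most of the sum in the control, at 1.77 and 5.90. Feeder fibroblast markers (8) summed to 9.68 and 12.0, against 6.78 to 39.7 in undifferentiated libraries, with Col1a1 at 0.444 and 5.73 FPKM and Thy1 the other way at 8.21 and 3.40. Thy1 alone made up most of the feeder sum in each undifferentiated library. It gave 4.64 of 6.78 FPKM in Yap1_OE and 39.2 of 39.7 in the library labelled Yap1_KO1. The part that these differences in cell makeup take in the members' values was not tested.

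Without differentiation, no member was called in any Yap1 comparison, but at most 1 member, Cdx1, reached the 1 FPKM minimum and could be called. In Yap1_KD1 over Control 0 members reached 1 FPKM, whereas 2-fold changes were seen in 0.506% of 11861 genes upward and 0.506% downward. Fragments were 5 against 4 for T, 7 against 14 for Mixl1, 6 against 3 for Evx1, 10 against 5 for Mesp1 and 25 against 32 for Cdx1. The interval of each of these ratios includes 1, the narrowest being 0.551 to 1.69 for Cdx1.

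In Yap1_OE over BirA 1 member was measured at 1 FPKM, Cdx1, with a log2 ratio of -0.61. Its 25 fragments against 38 gave a ratio of 0.438 (interval 0.253 to 0.744). Mixl1 had 34 fragments in Yap1_OE against 8, a 2.83-fold higher level (interval 1.28 to 7.07) at under 1 FPKM. At least 2-fold higher were 1.60% of 11599 genes and at least 2-fold lower 2.35%, with 0 members in either. Hand1 was at 5.46 FPKM in Yap1_OE against 0.456, the largest log2 ratio of FPKM + 1 among the other streak factors at 1 FPKM or more, and Bmp4 at 7.80 against 17.5. Trophoblast markers summed to 118 FPKM in Yap1_OE against 47.4 in BirA, and 4 of the 7 at 1 FPKM or more were at least 2-fold higher. Of the rest, Eomes, also a streak factor, was lower at 1.04 FPKM against 2.40. Ascl2 was lower at 3.92 against 5.08, and Tfap2c was at 29.9 against 29.6. Krt8 was at 63.4 against 7.32 FPKM.

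In the libraries labelled Yap1_KO1 and Yap1_KO2 Cdx1 was again the member tested. Its log2 change was 0.53 (SE 0.40, limma with Benjamini-Hochberg adjusted p = 0.462), from log2 ratios of 0.10 and 0.96. Limma called 2 of 11538 genes higher and 18 lower (0.0173% and 0.156%), and 2663 had an unadjusted p under 0.05. Both libraries together were at least 2-fold from ESC for 0.191% of genes upward and 0.979% downward, with 0 members. Of the 5 further lists 0 genes passed in limma. With 2 libraries against 1 the fit has little power, and a p that misses the threshold does not show that values were alike. Lefty1, a Nodal antagonist, was at 13.4 and 11.6 FPKM in the libraries labelled Yap1_KO1 and Yap1_KO2 against 39.1 in ESC, and Bmp4 at 54.0 and 74.6 against 34.6.

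Genes whose pattern over the 9 libraries lay nearest to a member were found by the root mean square difference of mean-centred log2(FPKM + 1) over 9563 genes whose highest library reached 5 FPKM. For T they were Alox15, a lipoxygenase (0.46), Wnt3 (0.46) and Msx1, a homeobox factor (0.50). For Mixl1 they were Flt1, a receptor for vascular endothelial growth factor (0.17), Phlda1 (0.18) and Serpinh1, a collagen chaperone (0.19). For Mesp1 they were Pdgfrl, Arap3 and the receptor kinase Axl (0.23, 0.23 and 0.27), for Evx1 Ppp4r4, Tapbp and Erap1 (0.22, 0.27 and 0.29), the last pair acting in antigen presentation, and for Cdx1 Ppp1r18, Bend4 and Spint1 (0.29, 0.36 and 0.36). No other member was among the nearest 3 of any, but the rule largely fixed this. Gsc, Lhx1 and Tbx6 stayed below 5 FPKM in every library and could not be found. The difference is not scaled for span, which ran from 2.01 log2 units for Cdx1 to 6.11 for T. Members of unlike span therefore lie apart even where their shapes are alike. Whether the members share a shape was not tested. Gsc, Lhx1 and Tbx6 spanned less than 2 log2 units and were not searched. For T, Mixl1, Mesp1 and Evx1 the highest value was in the differentiated control, and for Cdx1 in the library labelled Yap1_KO2.

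**Figure D4:**
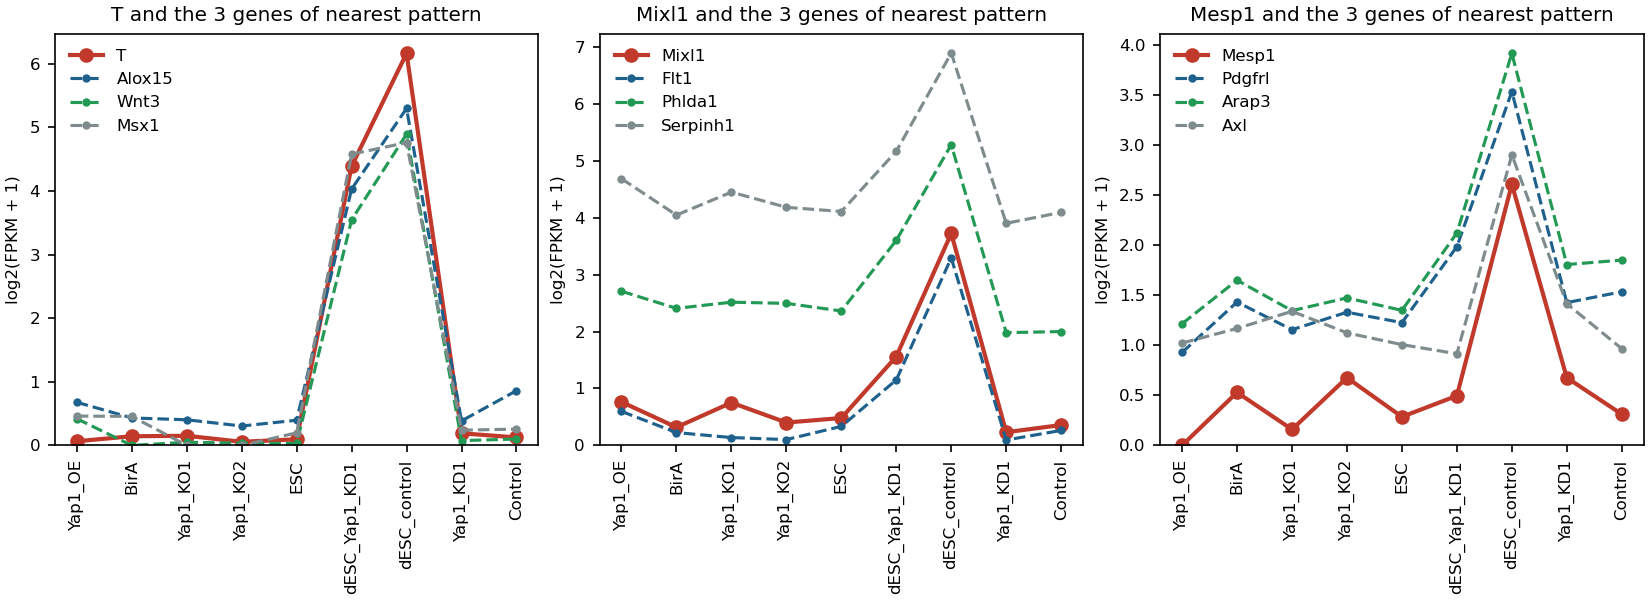
Log2(FPKM + 1) (vertical axis) of T, Mixl1 and Mesp1 (red) and of the 3 genes nearest in pattern to each, in the 9 libraries (horizontal axis, lines only join the points of a gene). T and its neighbours are high in both differentiated libraries, while Mesp1 is high in dESC_control alone (5.09 FPKM).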

How the data were processed

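The authors deposited 1 table of FPKM values per gene and library, made with TopHat2 and Cuffdiff on genome mm9, per the submitters' processing notes. For versions, annotation, scaling and strandedness, nothing was given in the sources used here. The header does not name the unit. Of 23277 rows, 4746 were blank and 27 carried symbols turned into dates, which left 18504 genes. Cuffdiff estimates values by likelihood, so a 0 may be a failed estimate.

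Relative depth came from the most common ratio between low values of each library and BirA, and its scale from 110 genes with 1 transcript of at least 3000 nt. A member's fragments are its depth-scaled values divided by the largest step that made those under 200 fragments whole within 0.02. Intervals are 95% exact binomial ones. PCR copies are not independent molecules, so intervals cover counting error only.

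Ratios and limma 3.58.1 (R 4.3.3, mean-variance trend, two-sided) used log2(FPKM + 1) for genes whose highest compared library reached 1 FPKM, with Benjamini-Hochberg adjustment at 0.05. The limma fits have 1 residual degree of freedom, and lone libraries are assumed to vary like the others. Nothing in the labels says that libraries came from separate cultures. In the knockout-labelled fit the error comes from the spread between the 2 libraries of that pair. In the knockdown arm it comes from the departure from additivity, not from a spread between replicates. The limma fits were tested on simulated data with additive changes in higher-level genes and noise taken from the knockout-labelled pair. There 4-fold changes were recovered at 87% for differentiation and 90% for knockdown, and 2-fold changes at 39% and 16%. The knockout fit recovered 0% of either. A knockdown effect that differs between states was not simulated, so these shares do not give the power for the members. Named genes are the 8 members, up to 4 genes of largest ratio per list and 3 nearest patterns per member spanning 2 log2 units. Genes named beyond this (Eomes, Msx2 under knockdown, Nodal, Tdgf1, Msgn1 and single markers) were chosen after their values were seen. Members and lists were chosen with earlier results of these data known.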

Additional observations from a re-analysis of the deposited data

Results flagged for a closer look

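Cdx1 was higher than ESC in both libraries labelled as knockouts, by log2 ratios of 0.10 (Yap1_KO1) and 0.96 (Yap1_KO2), and lower than its control in the differentiated knockdown, by a log2 ratio of -1.53. It stands out because both knockout-labelled libraries lay above their control while the lone differentiated knockdown library lay below its own. The counting interval of the ratio to ESC included 1 for Yap1_KO1 (1.10, interval 0.728 to 1.66) but not for Yap1_KO2 (2.33, interval 1.70 to 3.22). The difference between the knockout-labelled and the differentiated knockdown settings was not tested, and they differ in agent as well as in state. In the undifferentiated knockdown Cdx1 was near its control, at 0.842 FPKM against 0.869 (log2 ratio -0.02). In Yap1_OE, where Yap1 was raised and not lowered, Cdx1 was at 0.693 FPKM against 1.58 in BirA (log2 ratio -0.61). Among the controls without differentiation its level ran from 0.869 FPKM in Control to 2.51 FPKM in ESC.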

How the results depend on the processing

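Counts of members at least 2-fold apart changed with the pseudocount. With 5 in place of 1, members lower in the differentiated knockdown numbered 2 in place of 5, and members higher in the differentiated control 3 in place of 6, as a larger pseudocount shrinks ratios of low genes. With 0.1 there was 1 lower member in Yap1_OE (Cdx1) in place of 0. Rescaling to a common median took Lhx1 just past 2-fold in the differentiated control. Without a minimum level limma called 1 member lower with differentiation, Tbx6 (log2 change -0.43, adjusted p = 0.0373 by limma). In place of 2 genes called higher and 18 lower in the knockout-labelled pair, limma called 10 and 38 without small RNA rows, 0 and 0 without a minimum level (2910 at an unadjusted p under 0.05), 0 and 1 with BirA and Control added as controls (2660) and 0 and 2 in a joint fit with the knockdown arm (819). It called 1 higher with a pseudocount of 5 and 4 higher after rescaling. The cause was not tested. Without small RNA rows 0 genes were called in either direction for knockdown (992 at an unadjusted p under 0.05). With all 9 libraries and state alone, chosen after seeing the data, limma called 1535 genes lower with differentiation in place of 2368. Leaving out 1 knockout-labelled library gave 0 to 0 members at least 2-fold from ESC. No paired analysis was possible because the groups compared share fewer than 2 replicate numbers. Depth limits the undifferentiated values of T, Lhx1, Mesp1, Gsc and Tbx6 most.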
